A study of Mus musculus with 2 samples.

Results

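The sites described here are the 322 Glis3 sites that lie on mouse chromosomes 11, 15 and 17, of 1343 sites in the whole list. They were taken as every listed site on those chromosomes, which were chosen by their measured number of sites per Mb, the highest in the list. Glis3 is a Krüppel-like zinc finger transcription factor that binds DNA and activates insulin gene transcription, and its loss is known to cause neonatal diabetes. Sites came from chromatin immunoprecipitation and sequencing (ChIP-seq), in which cross-linked chromatin is sheared, the pieces that carry a tagged protein are collected, and their DNA is sequenced and mapped. The line was αTC1-9, a mouse cell line that stands for α cells, the glucagon-making cells of the pancreatic islet. All cells carried Glis3 fused to 3xFlag and mcherry. The study had 1 library from the precipitate of an anti-FLAG gel and 1 library of input DNA from cells with the same fusion, and no precipitate from cells without the fusion was analysed here.

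A site in the list is a short interval where sequence tags (mapped read positions) on one strand give way to tags on the other. Each site carries the number of ChIP tags, the caller's fold over input and the caller's p. Promoters and enhancers, where such factors bind, are themselves unevenly spread along chromosomes. Mouse chromosomes have their centromere at one end, and positions count from that end. The insulin genes of the mouse are on chromosomes 7 and 19, so none of the sites described here is at an insulin promoter. Each chromosome was divided into fixed bins of 5 Mb from position 0 up to the bin of its last site, and a site was assigned by the centre of its interval. Chromosome lengths in mm9 were not used, so a last bin may reach past the chromosome end and hold less than 5 Mb of sequence. Bins with at least 10 sites are called dense, those with 4 to 9 middle, those with 1 to 3 sparse and those with none empty. All positions are in mm9, as deposited.

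The precipitate gave 19551047 selected tags and the input 18603239 tags. Intervals printed below are exact 95% intervals (Poisson for numbers, Clopper-Pearson for shares, order statistics for medians), and they cover counting error only. Sites of 1 library are not replicates, so differences are described without a test. Both tag file names in the header hold the word Liver, and the protocol text mentions ES cells once, although every sample is labelled αTC1-9. The values hold for the library behind the list. Sequence and gene annotation in mm9 were not used here, so sites are given by position, without genes or motifs.

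Chromosome 11 held 149 sites, chromosome 15 held 88 and chromosome 17 held 85. Up to the last site this made 1.24 sites per Mb on chromosome 11 (Poisson interval 1.05 to 1.45), 0.893 on chromosome 17 (0.714 to 1.10) and 0.853 on chromosome 15 (0.684 to 1.05). These densities chose the chromosomes and are no finding. Chromosome 2, just outside the choice, had 0.783 sites per Mb (0.660 to 0.923), an interval that overlaps those of chromosomes 15 and 17. Chromosome 1 came next with 0.631 (0.525 to 0.752).

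Along each chromosome the sites were concentrated in a few bins. The 3 chromosomes made 66 bins: 15 dense, 10 middle, 26 sparse and 15 empty. The 15 dense bins held 222 of the 322 sites (68.9%, 63.6 to 74.0), the middle bins 57 and the sparse bins 43. The mean was 4.88 sites per bin and the median 2. The variance of the site number over the bins was 8.79 times its mean on chromosome 11, 6.89 times on chromosome 15 and 7.03 times on chromosome 17, whereas evenly scattered independent sites would give about 1.

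**Figure D1:**
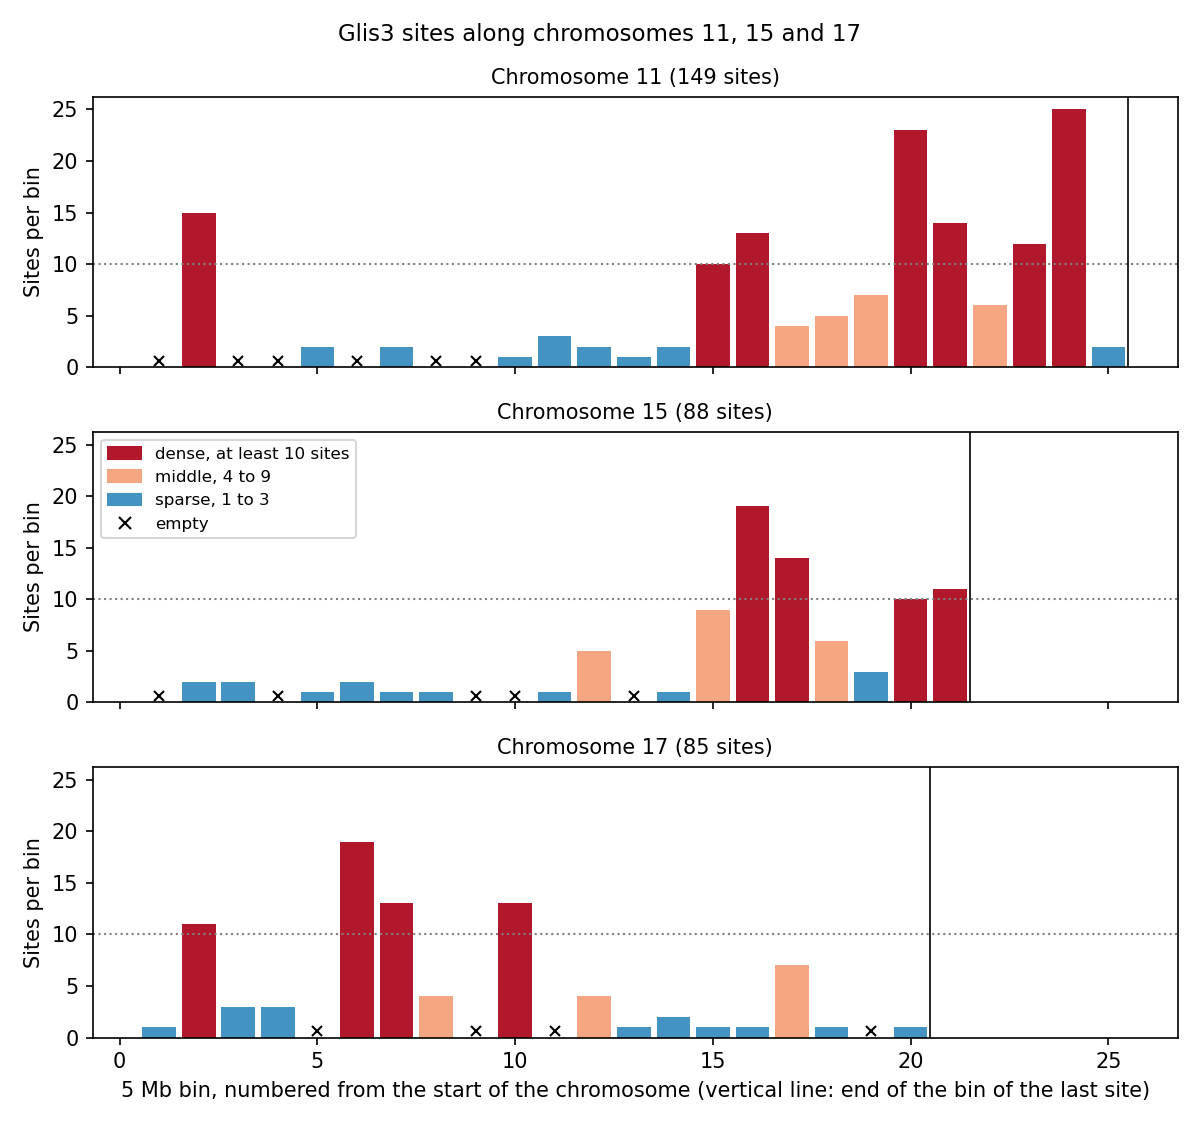
Number of Glis3 sites (y axis) in each 5 Mb bin (x axis, numbered from the chromosome start) on chromosomes 11, 15 and 17, with bars coloured by class of bin, crosses for empty bins and a dotted line at 10 sites. Most sites of chromosomes 11 and 15 lie in the bins far from the start, while the dense bins of chromosome 17 lie in its first 10 bins.

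On chromosome 11 the sites formed 1 early dense bin and 1 long late block. The block ran from 70 to 120 Mb, 10 bins in a row with at least 4 sites each, and held 119 of the 149 sites (79.9%). The bin from 115 to 120 Mb had the most sites, 25 (Poisson interval 16.2 to 36.9), followed by 23 from 95 to 100 Mb (14.6 to 34.5) and 15 from 5 to 10 Mb (8.40 to 24.7). The intervals of these bins overlap, so their order is not resolved. Between the early bin and the block, the 12 bins from 10 to 70 Mb held 13 sites in all, and 5 of the 12 were empty. The last bin, from 120 to 125 Mb, had 2 sites, with the last site of the chromosome at 120561851 to 120561891 (55 tags). That bin may be cut short by the chromosome end, so its class as sparse is uncertain.

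The 3 richest bins of chromosome 11 were packed in different ways. In the bin from 5 to 10 Mb all 15 sites had another site within 100 kb. They spanned 3384 kb, from 5039511 to 8423831, with 8 of them between 5 and 6 Mb. The bin's strongest site, meaning the one with the most tags and in ties the higher fold, was at 5054851 to 5054991 with 48 tags (45.7-fold). In the bin from 95 to 100 Mb the 23 sites ran from 95043371 to 99091751 and 21 of them had a neighbour within 100 kb. Its strongest site, at 98993711 to 98993771, had 93 tags over an implied input of 3 (29.5-fold). The highest fold of that bin, 76.1, was at 98790111 to 98790211, with 80 tags over an implied input of 1. In the bin from 115 to 120 Mb the 25 sites ran from 115264931 to 119907471 and every 1 Mb step held at least 1, with 16 sites having a neighbour within 100 kb. Its strongest site was at 118990171 to 118990231 with 94 tags (89.4-fold).

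On chromosome 15 the sites were pushed still further toward the far end. Of 88 sites, 72 (81.8%, 72.2 to 89.2) lay in the last of 3 equal parts of the length up to the last site, and 8 in each of the other parts. The first 11 bins, from 0 to 55 Mb, held 10 sites, at most 2 in a bin. The 4 bins from 70 to 90 Mb held 48 sites (54.5% of the chromosome), and the bins from 95 to 105 Mb held 21.

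The richest bin of chromosome 15, from 75 to 80 Mb, had 19 sites (Poisson interval 11.4 to 29.7) from 75905911 to 79781151. Of these, 10 lay between 78 and 79 Mb, the most in any 1 Mb step of the 3 chromosomes, at 78247431 to 78765711. Their tags were 39, 22, 21, 31, 23, 19, 19, 28, 35 and 24 in order of position, so this crowded stretch held only 1 site above 35 tags. The strongest site of the bin, at 79154991 to 79155031, had 39 tags (37.1-fold). The bin from 80 to 85 Mb had 14 sites from 80195011 to 84527771, with the strongest at 84527731 to 84527771 (58 tags, 27.6-fold). Its median was 26 tags, against 23 in the bin from 75 to 80 Mb. Its 9 sites between 84 and 85 Mb had a median of 44 tags, and 4 of them lay within 1140 bp. The sites with 55, 56 and 58 tags there had an implied input of 2 and folds of 26.2, 26.6 and 27.6. The bin from 100 to 105 Mb had 11 sites from 100257891 to 103135891, with the strongest at 101255451 to 101255491 (50 tags, 23.8-fold).

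Chromosome 17 showed the opposite arrangement, with 40 of 85 sites (47.1%, 36.1 to 58.2) in the first of 3 equal parts of its length and 13 (15.3%, 8.40 to 24.7) in the last. These intervals do not overlap, whereas on chromosomes 11 and 15 the last part had the higher share (64.4%, 56.2 to 72.1, and 81.8%). A higher share in the last part was not particular to those chromosomes. It was 52.4% (43.3 to 61.5) on chromosome 1 and 58.5% (49.9 to 66.7) on chromosome 2, against 12.1% and 26.8% in their first parts. Of its 4 dense bins, those from 25 to 30 and from 30 to 35 Mb adjoined and the others stood alone. The bin from 25 to 30 Mb had 19 sites (11.4 to 29.7) from 25073551 to 29373451, with the strongest at 25410631 to 25410731 (77 tags, 73.3-fold). The bin next to it, from 30 to 35 Mb, had 13 sites from 30362391 to 34259191, led by a site with 68 tags at 32213991 to 32214031 (64.7-fold). The bin from 45 to 50 Mb also had 13 sites, from 45710891 to 48548691, but none above 43 tags (the strongest at 48026771 to 48026811, 20.5-fold). The remaining dense bin, from 5 to 10 Mb, had 11 sites, of which 6 lay within 3080 bp.

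The rank correlation of site numbers in bins next to each other was positive on chromosomes 11 and 15 and negative on chromosome 17. Across pairs of neighbouring bins, Spearman's rho of the site numbers was 0.39 on chromosome 11 (24 pairs), 0.56 on chromosome 15 (20 pairs) and -0.26 on chromosome 17 (19 pairs). These values describe the bins, which share 1 library, and carry no interval and no test. With so few pairs, a relation is not established on any of the chromosomes.

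Long stretches without a site took up much of the same chromosomes. The 15 empty bins were 6 on chromosome 11, 5 on chromosome 15 and 4 on chromosome 17. The first bins of chromosomes 11 and 15, both empty, include the unresolved sequence with which mouse chromosome assemblies begin. So does the first bin of chromosome 17, which was classed as sparse with 1 site. Neighbouring sites were more than 5 Mb apart in 17 cases. These stretches added up to 148.7 Mb, or 46.6% of the length from position 0 to the last sites (40.3% on chromosome 11, 46.1% on chromosome 15 and 55.2% on chromosome 17).

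The longest stretch of the 3 chromosomes was on chromosome 15 and measured 14.7 Mb between centres. It ran from a site at 38400851 to 38400891 (21 tags) to a site at 53055951 to 53055991 (33 tags). On chromosome 11 the longest measured 13.99 Mb, from the last site of the early dense bin at 8423791 to 8423831 to a site at 22412371 to 22412531, and both of these sites had 19 tags, the fewest of any listed site. A further stretch of 13.96 Mb on chromosome 11 began at one of the strongest sites, at 32095291 to 32095391 (94 tags). On chromosome 17 the longest was shorter, 9.68 Mb, and it separated the end of the run of bins from 25 to 40 Mb, at 36034511 to 36034591 (20 tags), from the first site of the dense bin from 45 to 50 Mb, at 45710891 to 45711191 (32 tags).

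Gaps also occurred inside the late block of chromosome 11. Sites at 88370751 to 88370811 (41 tags) and 93995851 to 93995891 (46 tags) were 5.63 Mb apart, and sites at 108058831 to 108058951 and 112540831 to 112540871 were 4.48 Mb apart. The first of these gaps is longer than a bin, so a bin placed wholly inside it would hold no site. That the block has at least 4 sites in each bin thus depends on where the bins are placed. Over the 15 dense bins, 63 of 75 steps of 1 Mb (84.0%) held a site. In the middle bins 28 of 50 did (56.0%) and in the sparse bins 34 of 130 (26.2%).

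Tag numbers in dense and sparse bins ran over the same range, 19 to 94, with close medians. The shared lower end is set by the caller and is no finding. It is the fewest tags with which a site can reach the calling limit over an input of 1. The medians lie near that floor, which limits what their closeness can show. The median was 25 tags in dense bins (median interval 23 to 27, quartiles 22 and 33, range 19 to 94), 25 in middle bins (23 to 28) and 24 in sparse bins (20 to 29, quartiles 20 and 33, range 19 to 94). At least 25 tags were found at 116 of 222 sites in dense bins (52.3%, 45.5 to 59.0) and at 21 of 43 in sparse bins (48.8%, 33.3 to 64.5). The number of 38 tags is of use because it is the fewest with which a site can reach the calling limit of 18.00-fold over an input of 2. It was reached at 43 sites in dense bins (19.4%, 14.4 to 25.2), at 15 in middle bins (26.3%, 15.5 to 39.7) and at 6 in sparse bins (14.0%, 5.30 to 27.9). With 43 sites in sparse bins the intervals are wide and all 3 overlap, so a difference in strength between the classes was not detectable with these numbers.

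**Figure D2:**
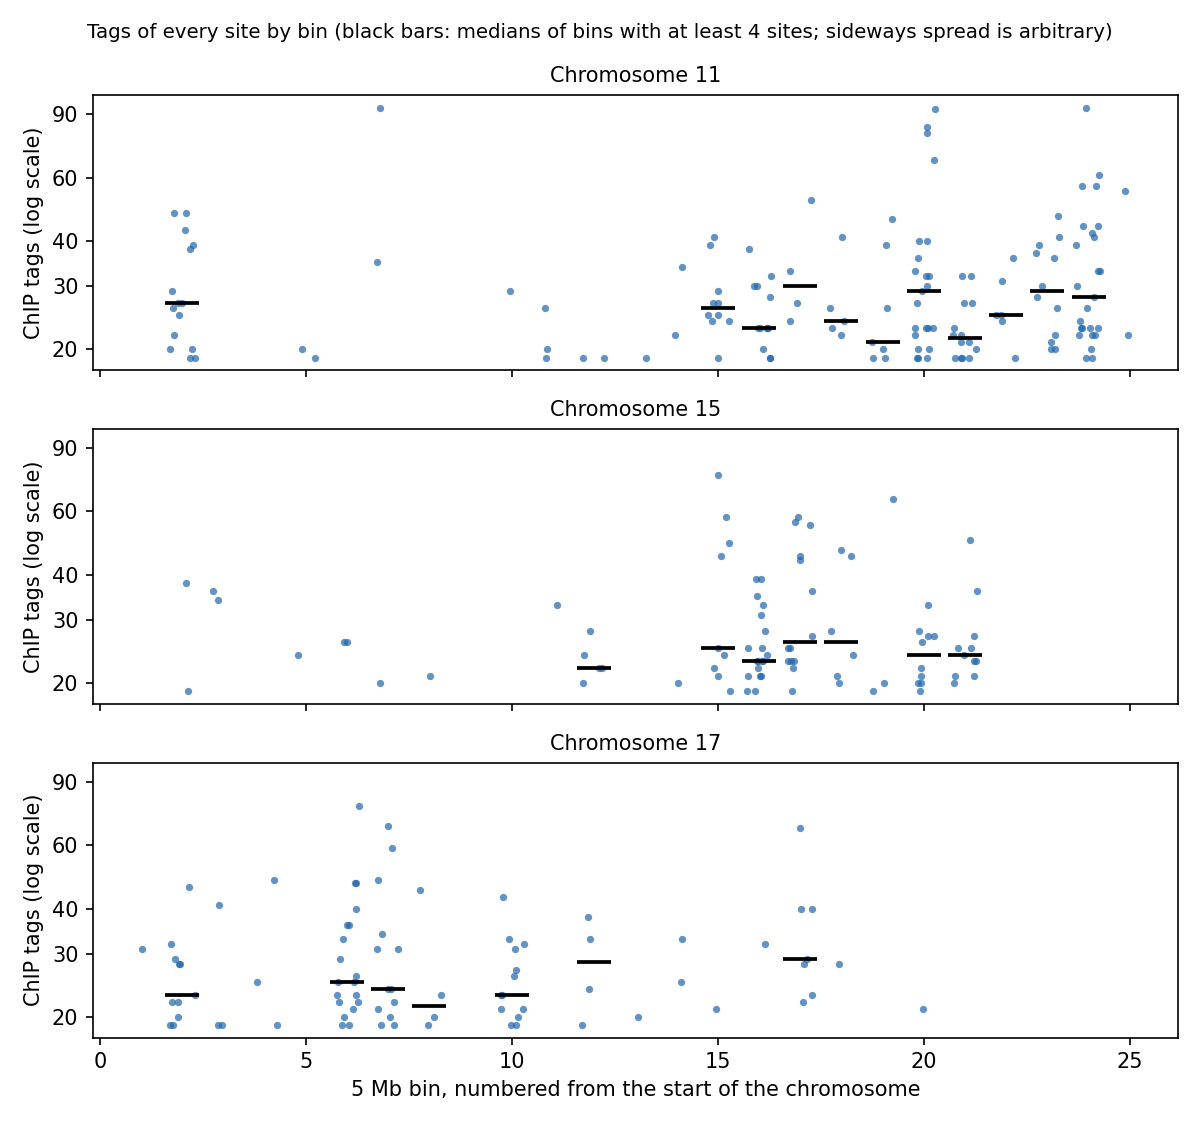
ChIP tags of every site (y axis, log scale) by 5 Mb bin (x axis) on chromosomes 11, 15 and 17, with black bars for the medians of bins with at least 4 sites. Sites from 19 to about 40 tags occur in rich and poor bins alike, and a site with 94 tags stands in a bin of chromosome 11 with 1 other site.

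The chromosomes differed a little in this comparison, within their intervals. On chromosome 11 the median was 26 tags in dense bins (112 sites, 23 to 28) and 22 in sparse bins (15 sites, 19 to 34). On chromosome 15 it was 24.5 (54 sites, 23 to 27) and 25 (14 sites, 20 to 36). On chromosome 17 it was 24.5 (56 sites, 22 to 29) and 25 (14 sites, 19 to 33). The median was thus higher in dense than in sparse bins on chromosome 11 and not on the other two, and the intervals overlap on all of them.

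Dense bins also varied among themselves. Their medians ran from 21.5 tags in the bin from 100 to 105 Mb on chromosome 11 to 29 tags in the bins from 95 to 100 and from 110 to 115 Mb on the same chromosome. The bin from 100 to 105 Mb held 14 sites and none above 32 tags, beside the bin from 95 to 100 Mb with a site of 93 tags. On chromosome 15 the bin from 95 to 100 Mb likewise had 10 sites and none above 33 tags. These were the 2 dense bins of 15 in which no site reached 38 tags. The bin from 115 to 120 Mb on chromosome 11 had 9 such sites, the most of any of the 66 bins.

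The strongest sites were not limited to dense bins. Of the 22 sites with at least 50 tags, 15 were in dense, 4 in middle and 3 in sparse bins. Among those in sparse bins, the site with 55 tags lay in the last bin of chromosome 11, which may be cut short. By chromosome, 11 were on chromosome 11, 7 on chromosome 15 and 4 on chromosome 17. Over all 322 sites the classes held 222 (68.9%), 57 (17.7%) and 43 (13.4%), and the chromosomes 149, 88 and 85. The split of the 22 by class was thus near that of all sites. In the whole list 83 sites had at least 50 tags, so these chromosomes held 22 of 83, beside 322 of all 1343 sites. Of the 9 sites in the whole list with at least 75 tags, 7 were on these chromosomes, 5 of them on chromosome 11. Among the 7, those with 93, 83 and 76 tags had implied inputs of 3, 3 and 4, with folds of 29.5, 26.3 and 18.1. The others of the 7 had an implied input of 1.

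On chromosome 11 the site at 32095291 to 32095391, with 94 tags (Poisson interval 76.0 to 115) and 89.4-fold, shared its bin with 1 other site, at 31724991 to 31725111 (35 tags, 33.3-fold), 370 kb away. On the far side of that other site lay 8.57 Mb without a site, and on the far side of the strong site 13.96 Mb. The equally strong site at 118990171 to 118990231 lay in the richest bin of the chromosome, with a site of 44 tags 5.03 kb away. The same tag count was thus seen in a bin of 2 sites and in a bin of 25.

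On chromosome 15 the site with the most tags, 76 (59.9 to 95.1), was at 73763591 to 73763651 in a middle bin, and its fold of 18.1 equalled the lowest of any site. The next, with 65 tags (50.2 to 82.8), was at 93517151 to 93517191 in a sparse bin with 2 others, at 20.6-fold over an implied input of 3. A site at 73562711 to 73562931 had 58 tags (44.0 to 74.98) and 55.2-fold over an implied input of 1. The order by tags and the order by fold thus differ on chromosome 15. On chromosome 17 the 3 sites with the most tags had 77, 68 and 67, all over an implied input of 1. The first and the second lay in dense bins, as given above, and the third at 84285951 to 84285991 in a middle bin (63.8-fold).

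The called intervals had similar widths in dense and sparse bins. All intervals of the list are multiples of 20 bp, the scanning step, so widths take few values. The median was 60 bp in dense bins (median interval 60 to 80, quartiles 40 and 140), 80 bp in middle bins (60 to 120) and 60 bp in sparse bins (40 to 100, quartiles 40 and 120). The shortest width, 40 bp, made up 74 of 222 sites in dense bins (33.3%, 27.2 to 39.95) and 17 of 43 in sparse bins (39.5%, 24.98 to 55.6). Widths of at least 100 bp made up 42.3% (35.8 to 49.1) and 39.5% (24.98 to 55.6).

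**Figure D3:**
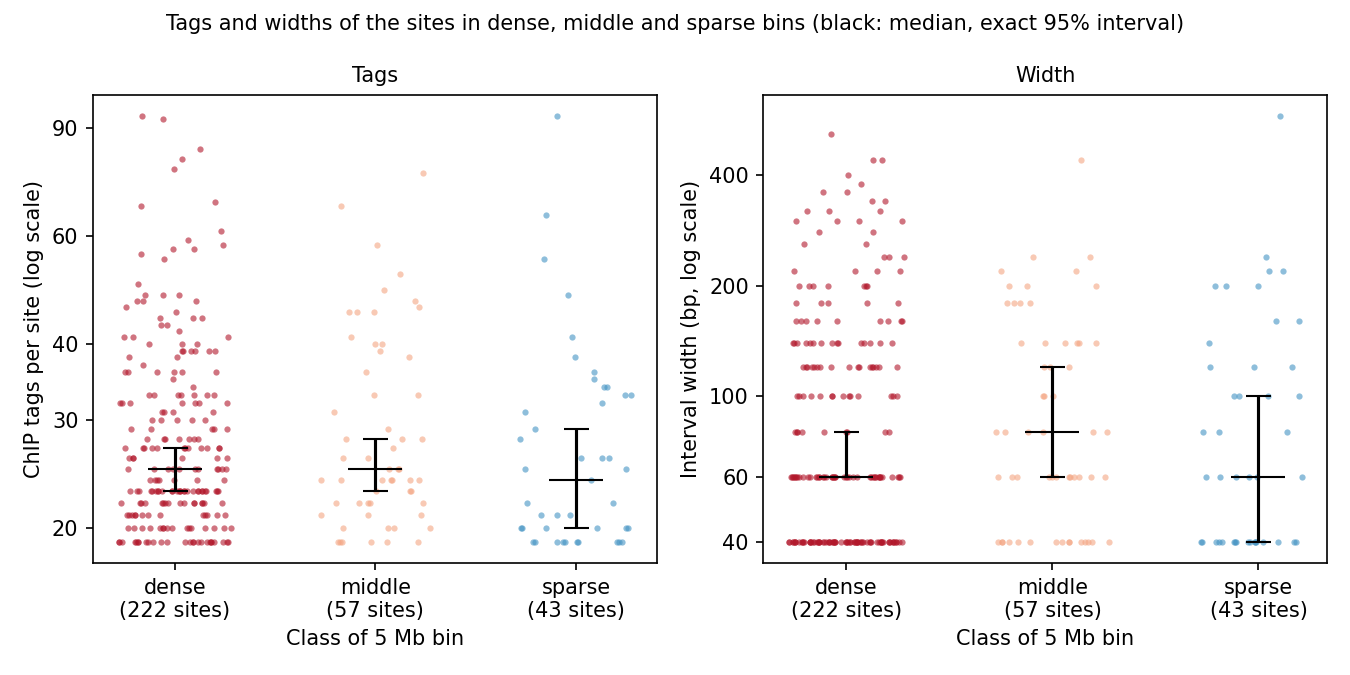
ChIP tags (left, log scale) and interval widths in bp (right, log scale) of the 222 sites in dense, 57 in middle and 43 in sparse bins, 1 point per site, with the median and its exact 95% interval in black. The classes largely overlap, with tags from 19 to 94 in dense and sparse bins and from 19 to 76 in middle bins, and their median intervals overlap.

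Widths were also compared between the chromosomes. On chromosome 15 the median was 60 bp (40 to 60) and 27 of 88 sites were at least 100 bp wide (30.7%, 21.3 to 41.4). On chromosome 11 the median was 80 bp (60 to 100) and 69 of 149 sites were that wide (46.3%, 38.1 to 54.7), and on chromosome 17 the median was 80 bp (60 to 120) with 39 of 85 (45.9%, 35.0 to 57.0). The intervals of these shares overlap. In dense bins alone the shares were 24.1% (13.5 to 37.6) on chromosome 15 and 49.1% (39.5 to 58.7) on chromosome 11, and there the intervals do not overlap. The widest intervals were 440 bp on chromosome 11 (3 sites, of which the one with the most tags, 39, was at 5091951 to 5092391), 220 bp on chromosome 15 (4 sites, of which the one with the most tags, 58, was at 73562711 to 73562931) and 580 bp on chromosome 17 (66299431 to 66300011, 33 tags). The site of 580 bp was in a sparse bin.

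Width and tags showed little relation across the 322 sites (Spearman's rho = -0.04, a description over sites of 1 library). Sites of 40 bp had a median of 26.5 tags (24 to 28), those of 60 or 80 bp 23 tags (22 to 25) and those of at least 100 bp 25 tags (23 to 27). The 5 sites of chromosome 11 with at least 75 tags were 60 or 100 bp wide.

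Sites close together were found mainly, but not only, in dense bins. Another site lay within 100 kb of 188 of the 322 sites (58.4%, 52.8 to 63.8), that is of 147 sites in dense bins (66.2%, 59.6 to 72.4), 29 in middle bins (50.9%, 37.3 to 64.4) and 12 in sparse bins (27.9%, 15.3 to 43.7). More sites in a bin leave less room between them, so a difference in this direction follows from the classes. Within 1 kb the shares were 14.0% in dense bins (9.69 to 19.2), 19.3% in middle bins (10.0 to 31.9) and 4.65% in sparse bins (0.568 to 15.8). Within 10 kb the shares of dense and middle bins were alike, 27.9% (22.1 to 34.3) and 28.1% (16.97 to 41.5), against 9.30% (2.59 to 22.1) in sparse bins. At the other end, 17 of the 43 sites in sparse bins had no site within 1 Mb, as had 4 in middle bins and 1 in a dense bin. These 22 sites had a median of 21.5 tags (20 to 28) and at most 40.

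**Figure D4:**
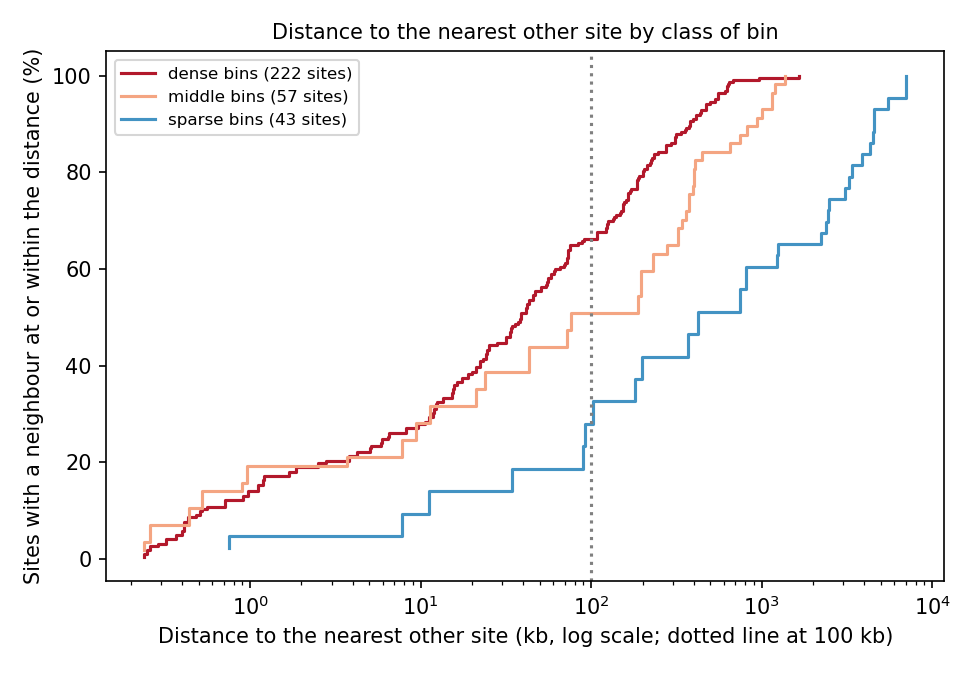
Cumulative share of sites (y axis, percent) with another site at or within a distance (x axis, kb, log scale) for sites in dense, middle and sparse bins, with a dotted line at 100 kb. The curves of dense and middle bins cross below 10 kb and part beyond it, and the curve of sparse bins lies below both.

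Joining sites with a neighbour within 100 kb gave 201 groups, of which 134 were single sites, 35 pairs, 17 groups of 3 and 15 groups of 4 to 7 sites. The groups of 4 or more held 67 sites, 42 of them on chromosome 11, and 14 of the 15 lay in dense bins. The largest was on chromosome 17 at 8701171 to 8720851, with 7 sites whose centres spanned 19.4 kb. Their tags were 28, 29, 22, 22, 28, 19 and 23 in order of position, so none was strong. The last 6 of them lay within 3080 bp, from 8717771 to 8720851, each less than 1 kb from the next.

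Other groups held sites with many and with few tags side by side. On chromosome 15, at 84470551 to 84527771, 5 sites had 55, 44, 23, 56 and 58 tags, and the last 4 lay within 1140 bp. On chromosome 17, at 31927591 to 31991791, 5 sites had 59, 21, 31, 19 and 48 tags. On chromosome 11, at 98993711 to 99091751, 4 sites had 93, 20, 67 and 23 tags, and at 118990171 to 119129391 4 sites had 94, 44, 23 and 19.

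In all, 44 sites stood in 18 runs with less than 1 kb between neighbouring centres, 8 runs on chromosome 11 and 5 each on chromosomes 15 and 17. Of these runs, 14 were pairs, 12 lay in dense bins, 5 in middle bins and 1 in a sparse bin. Within a run the highest tag count was 1.07 to 2.53 times the lowest (median 1.81). The closest pair of chromosome 11, at 93995851 to 93995891 and 93996091 to 93996131, had 46 and 26 tags 240 bp apart. On chromosome 15 the closest pair, at 84527191 to 84527231 and 84527431 to 84527491, had 23 and 56 tags 250 bp apart. On chromosome 17 sites at 31991511 to 31991551 and 31991751 to 31991791 had 19 and 48 tags 240 bp apart. The folds were 43.8 and 24.7 on chromosome 11, 21.9 and 26.6 on chromosome 15, and 18.1 and 22.8 on chromosome 17. On chromosomes 15 and 17 the site with more tags had an implied input of 2. The distances in these pairs are slightly above the mean fragment length of 210 bp in the header, and whether such calls are separate binding events was not tested.

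The implied input behind the folds was low, which the calling limit in large part fixes. With fewer than 38 tags, a site over an input of 2 or more could not reach 18.00-fold. Only 64 of the 322 members had at least 38 tags. Tags times the ratio of the library totals, divided by the fold, gave an implied input of 1 (within 0.01) at 278 of the 322 sites (86.3%, 82.1 to 89.9), of 2 at 19, of 3 at 4 and of 4 at 1. An implied input of 1 was found at 85.6% of sites in dense bins (80.3 to 89.9) and 90.7% in sparse bins (77.9 to 97.4). These shares are not independent of the shares with at least 38 tags, 19.4% in dense and 14.0% in sparse bins. At the remaining 20 sites the implied input was not whole and lay between 1.02 and 1.89. There the fold matched an input of 1 with a whole number of tags that was 1 to 17 lower than the number listed. Of these 20 sites, 19 had intervals of at least 100 bp, where the median width was 200 bp (140 to 300) against 60 bp over all members, and none had 40 bp. Of the 20, 13 lay in dense bins.

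Set beside the rest of the list, chromosomes 11, 15 and 17 made up 66 of the 518 bins of the genome (12.7%) and 15 of the 34 dense bins (44.1%, 27.2 to 62.1). More dense and fewer empty bins follow from choosing chromosomes by density. Dense bins were 22.7% of the bins on these chromosomes (13.3 to 34.7) and 11.7% on chromosomes 1 and 2, the next in density (5.49 to 21.0), with overlapping intervals. The fullest bin of all was elsewhere, with 28 sites on chromosome 8 from 120 to 125 Mb. Empty bins made up 22.7% of the bins on the 3 chromosomes (13.3 to 34.7), 38.7% on the others (34.2 to 43.4) and 29.9% on chromosomes 1 and 2 (19.97 to 41.4). Against the other chromosomes, the 2 measures of unevenness went different ways. The first, variance over mean, rises with the mean site number when relative unevenness is equal. That mean was 4.88 sites per bin on the 3 chromosomes, 2.26 on the others and 3.45 on chromosomes 1 and 2. Choosing by density thus favours a higher ratio, which does not show the 3 chromosomes to be more uneven. The variance of the site number over all their bins was 7.72 times its mean on the 3 chromosomes, 5.06 times on the others and 5.18 times on chromosomes 1 and 2. The 13 densest of 66 bins held 62.7% of sites (57.2 to 68.0) on the 3 chromosomes, and the 90 densest of 452 bins held 67.6% (64.6 to 70.4) on the others. On chromosomes 1 and 2 the 15 densest of 77 bins held 59.0% (52.9 to 65.0).

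Tags per site were slightly higher than on the other chromosomes. The median was 25 (24 to 26) against 23 (23 to 24) at 1021 sites, and at least 25 tags were found at 51.6% (45.9 to 57.1) against 44.0% (40.9 to 47.1). Against chromosomes 1 and 2 alone the difference was smaller, with a median of 24 (23 to 25) and 47.4% (41.2 to 53.6) there. At least 38 tags were found at 19.9% of sites on chromosomes 11, 15 and 17 (15.7 to 24.7), 15.5% on all others (13.3 to 17.8) and 20.3% on chromosomes 1 and 2 (15.6 to 25.6). On the other chromosomes, where sparse bins held 291 sites, the classes of bin could be compared with narrower intervals. The share with at least 38 tags was 18.7% in dense bins there (14.2 to 23.96), 16.9% in middle bins (13.6 to 20.6) and 10.3% in sparse bins (7.06 to 14.4). At least 25 tags were found at 131 of 262 sites in dense bins (share 43.8 to 56.2%), 44.9% in middle bins (40.3 to 49.5) and 37.1% in sparse bins (31.5 to 42.9), and the intervals of dense and sparse bins do not overlap. The medians were 24.5, 24 and 22 tags. On chromosomes 11, 15 and 17 the middle bins, not the dense ones, had the highest share with at least 38 tags, as given above.

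Widths were alike, with 32.9% of intervals at 40 bp (27.8 to 38.3) on chromosomes 11, 15 and 17 and 33.3% (30.4 to 36.3) on the others. Close neighbours are favoured by the density that chose the chromosomes, so their number is a description: 13.7% of sites (10.1 to 17.9) had another within 1 kb, against 6.46% (5.03 to 8.15) on the others and 11.3% (7.74 to 15.7) on chromosomes 1 and 2. In dense bins the share with a neighbour within 100 kb was nearly the same on the 3 chromosomes (66.2%) and on the others (66.0%, 59.9 to 71.7).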

How the data were processed

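Per the file header, binding sites were called by the authors with SISSRs 1.4 on 1 ChIP tag file against 1 input tag file, with an E-value of 10, a p threshold of 0.0001, a 20 bp window and 1 tag kept per position. Bowtie and mm9 are named in the submitters' processing notes, with Bowtie's version not given in the sources used here. As deposited, the list holds a count of ChIP tags, a fold (ratio of ChIP to input, scaled by library totals) and a p-value per site. Fold and p are the authors' values and only describe sites. Positions are printed as deposited, with no statement of whether the first base is 0 or 1.

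Bins, gaps, groups and intervals were computed with Python 3.11.15, numpy 2.4.6, pandas 2.3.3 and scipy 1.17.1, and figures with matplotlib 3.10.9. The scripts were tested on simulated data. No test was run, since there is 1 library of each kind. Named were, per chromosome, the 3 sites with most tags, the widest interval, the 3 bins with most sites, the longest stretch without a site and the closest pair. Further sites and groups were singled out after their values were seen. Members, classes and rules were chosen with earlier results of these data known. No mm9 sequence or annotation was used, so no sequence is printed.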

Additional observations from a re-analysis of the deposited data

How the results depend on the processing

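Of 62 alternatives over 13 results, 55 stayed within the interval of the main value, or within 1.5 times of a count. All 16 alternatives for the median tags of dense or sparse bins were among them (shifted or 2 Mb bins, sites within 1 kb counted once, classes relative to the chromosome's mean, each chromosome left out and, for dense bins, the settings chosen after seeing the data: tags implied by the fold, and leaving out the richest bin). With the 194 members at or above the list's median fold, dense bins fell from 15 to 6 and empty bins rose from 15 to 25, by construction. The densest bins (1 in 5) held 70.2% of sites with 2 Mb bins and 54.97% with 10 Mb bins. Counting sites within 1 kb once left 296 sites, of which 52.7% had a neighbour within 100 kb, and lowered the dense bins from 15 to 12. An implied input of 1 was found at 53.1% of members with at least 38 tags. With chromosomes 1 and 2 as the comparison, the share with at least 38 tags there was 20.3%. No paired analysis was possible because the study has a single precipitate. The folds are limited in precision, since they rest mostly on an implied input of 1, and the few sites in sparse bins limit their shares.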
